A study of Mus musculus with 2 samples.

Results

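The genes described here are 31 genes of DNA replication, taken by symbol from a table of 27998 genes. All 31 are protein-coding and all were found. They were measured by droplet single-cell RNA sequencing (10x Genomics), in which each captured transcript carries a unique molecular identifier (UMI). The samples are 2 libraries of the injured carotid artery of male C57BL/6J mice aged 8 weeks, with no genetic change named. One was taken 14 days (2 weeks) and the other 28 days (4 weeks) after wire injury, which strips the endothelium and is used as a model of intimal hyperplasia. Each library stands for 18 mice with no label for the single animal, and uninjured vessel was not analysed here. The adventitia was dissected from the inner layers, the tissue was digested with papain, and live Hoechst-positive cells were sorted. The labels name the carotid artery as the tissue but speak of aortic grafts in the extraction protocol. The side of the injury is given as left in 1 place and as right in another. Besides cells of the vessel wall and immune cells, clusters with markers of parathyroid (54 and 15 cells at 2 and 4 weeks) and airway epithelium (26 and 1) were present.

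DNA replication starts when the helicase made of the Mcm proteins is loaded at origins by Cdc6 and switched on by Cdc45 and the GINS complex. Polymerase alpha with its primase lays primers, Pcna clamps the polymerases to the template, and Fen1 and Lig1 trim and join the pieces of the lagging strand. Most of these genes are transcribed under E2F factors at the transition from G1 to S phase, so that their RNA marks cells about to copy, or copying, their DNA.

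Promoter windows of 300 bases were matched in RefSeq (GRCm38.p6) for 26 of the 31 genes. An E2F-type motif, spelled TTTCCCGC, TTTCGCGC, TTTGCCGC or TTTGGCGC and searched on both strands with overlaps allowed, lay in the windows of 12 of these 26 genes (46.2%). The same motif lay in the windows of 704 of all 27025 genes (2.60%). In the 250 bases before the start alone it was found for 8 of 26 genes (30.8%) against 2.16% of all genes. The CCAAT box was found in 17 of 26 windows (65.4%, against 41.1% of all genes), and the CHR motif TTTGAA in 3 of 26 (11.5%, against 20.2%). A gene with several windows was counted once, and a match is a run of letters, not a tested binding site. The 5 stretches below are shown because these genes carry the motif before the RefSeq start and are among those followed through the results. Each reads 5′ to 3′ on the gene's strand and ends before that start, with the motif in capitals. In another annotation (GENCODE) Cdc6 starts at 98907801 and Hells at 38930915, so that by it their motifs lie inside the gene.
Mcm5, helicase subunit, chr8:75109336-75109387, plus strand: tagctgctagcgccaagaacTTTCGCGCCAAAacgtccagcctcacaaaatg
Mcm6, helicase subunit, chr1:128359725-128359835, minus strand: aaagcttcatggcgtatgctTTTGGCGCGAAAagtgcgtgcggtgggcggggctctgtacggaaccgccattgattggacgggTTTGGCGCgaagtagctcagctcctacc
Cdc6, helicase loader, chr11:98907993-98908040, plus strand: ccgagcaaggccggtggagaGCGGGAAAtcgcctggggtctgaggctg
Hells, chromatin remodeller, chr19:38930908-38930955, plus strand: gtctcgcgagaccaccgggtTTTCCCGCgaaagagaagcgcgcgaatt
Cdca7, partner of Hells, chr2:72476128-72476175, plus strand: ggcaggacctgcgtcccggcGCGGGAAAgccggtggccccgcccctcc
In Mcm5 and in the upstream pair of Mcm6, motifs on the opposite strands overlap, so that a single capital run holds both.

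After filtering, 5152 cells were kept at 2 weeks and 7422 at 4 weeks, with medians of 11752.5 and 8716 UMIs. Clusters were built without cell cycle genes and named from marker lists, with "-like" added because the names are rebuilt here. To compare cells of unequal depth, each was thinned to 2700 UMIs, which left 4612 and 6729 cells. A cell with 5 or more UMIs of the 31 genes is called replication-high. The libraries shared 8 barcodes. With 1 library for each time, no test between times could be made, and every interval given covers counting error only (95%).

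Replication-high cells were found mainly in 2 lymphoid classes. At 2 weeks 765 of 4612 cells (16.6%, 15.5 to 17.7) were replication-high, and 697 of those 765 (91.1%) were thymocyte-like. At 4 weeks 523 of 6729 cells (7.77%, 7.14 to 8.44) were replication-high, of which 220 (42.1%) were thymocyte-like and 186 (35.6%) germinal centre B-like. With a stricter threshold of 8 UMIs the thymocyte-like share was 96.0% of 601 cells at 2 weeks, and the 2 classes held 50.4% and 42.5% of 369 cells at 4 weeks. The class mix of the kept cells differed between the times. Thymocyte-like cells were 31.8% of them at 2 weeks and 10.9% at 4 weeks, and fibroblast-like cells 19.3% and 39.2%. Germinal centre B-like cells numbered 8 and 279, and B-like cells 39 and 1170. The part of this mix in the replication-high shares of all cells was not tested.

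**Figure D1:**
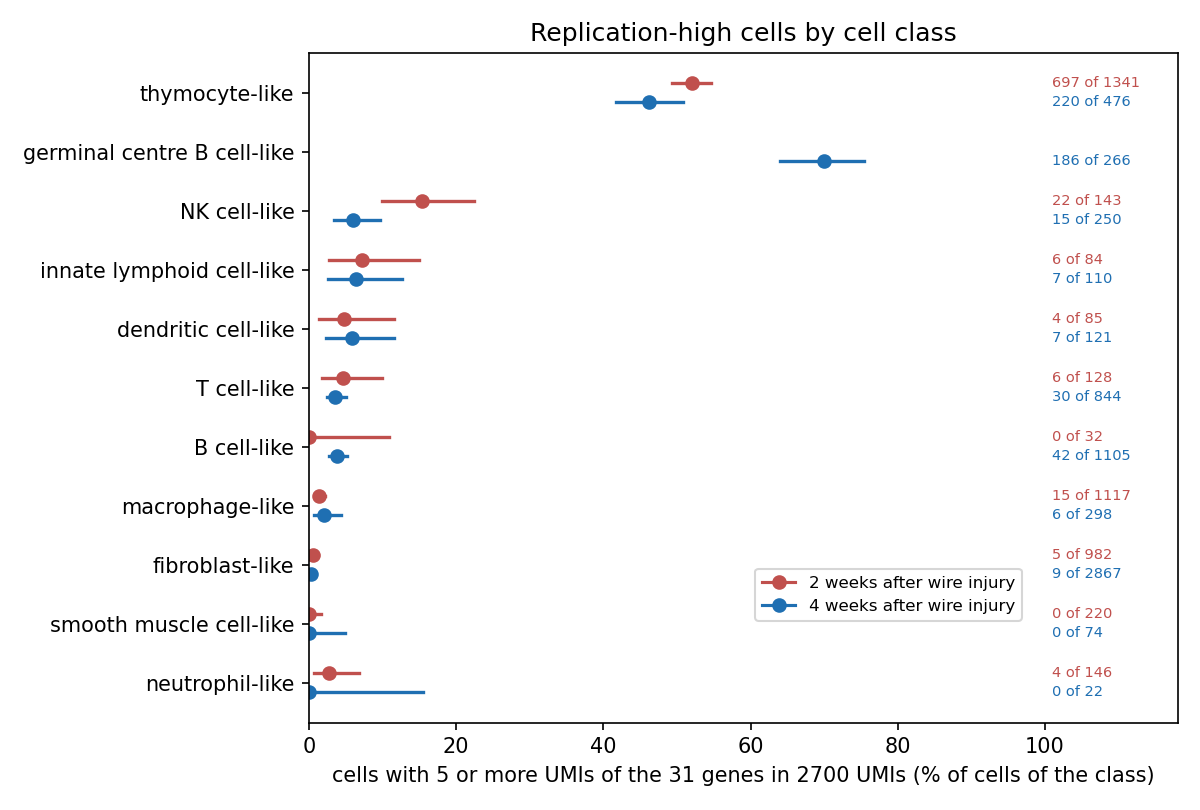
Share of replication-high cells by class; points are percent of the thinned cells of that class, lines 95% exact binomial intervals, red 2 weeks and blue 4 weeks, classes with 20 or more thinned cells at that time. Thymocyte-like cells stand at 52.0% and 46.2% and germinal centre B-like cells at 69.9%, while the points of fibroblast-like and smooth muscle-like cells lie below 1%. The lines reach 1.18% for fibroblast-like cells at 2 weeks, and 1.66% and 4.86% for smooth muscle-like cells at 2 and 4 weeks. For a count of 0 these lines differ from the limit of 3 counts used in the text.

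Thymocytes are the developing T cells of the thymus, which divide after rearranging the beta chain of their receptor. All 9 genes of their marker list were present in the class, among them the recombinase gene Rag1 at 573.3 CPM (the UMIs of a gene over all UMIs of the class, scaled to a common total) at 2 weeks and 781.1 at 4 weeks, and Dntt, which adds bases at receptor joints, at 1043 and 1206. Of the thinned thymocyte-like cells, 697 of 1341 (52.0%, 49.3 to 54.7) were replication-high at 2 weeks and 220 of 476 (46.2%, 41.7 to 50.8) at 4 weeks, and these intervals overlap. Thinning left out 295 and 336 shallow cells of the class. Counting those as not replication-high, an alternative added after the data were seen, the shares were 42.6% and 27.1%, and their intervals (40.2 to 45.04 and 24.1 to 30.3) do not overlap. The order of the times is the same in both counts, but the size of the gap depends on the shallow cells. With separate clustering of the libraries only the 2-week share moved, to below its interval, so the order is not firm.

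Within the class, 1 cluster held most of them. In cluster 4, 600 of 640 cells (93.8%) were replication-high at 2 weeks and 182 of 188 (96.8%) at 4 weeks. In cluster 0, the largest thymocyte-like cluster, the shares were 77 of 642 (12.0%) and 24 of 256 (9.38%). Cluster 21 lay between them, at 20 of 59 (33.9%) and 14 of 32 (43.8%), with wide intervals (22.1 to 47.4 and 26.4 to 62.3). Of the replication-high thymocyte-like cells, 691 of 697 at 2 weeks and 218 of 220 at 4 weeks had a thinned UMI of the thymocyte list. Their mean of such UMIs was 11.3 at 2 weeks, against 24.0 in the other thymocyte-like cells, and they were deeper before thinning, with a median of 16773 UMIs against 3908.5.

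The class name of these cells depended on the clustering. At Leiden resolution 2, 208 of the 697 cells at 2 weeks (29.8%) fell in a cluster that took the name T cell-like, and with no doublets removed 404 (58.0%) fell in a cluster without a name. Before thinning, every one of the 697 carried UMIs of the thymocyte list, with a median of 56. The 208 and the 404 cells that changed name had medians of 51 and 52.5. By name alone, the thymocyte-like part of the replication-high cells at 2 weeks was then 63.9% at resolution 2 and 35.1% with no doublets removed.

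Germinal centre B cells are B cells in a phase of fast division in lymphoid follicles. At 4 weeks 186 of 266 such cells (69.9%, 64.0 to 75.4) were replication-high, above the interval of the thymocyte-like cells of the same library. At 2 weeks the class had 8 cells, of which 1 was replication-high. Of its 7 markers, Rgs13 stood at 309.9 CPM at 4 weeks and S1pr2 at 131.9, while Mef2b was near 0 (1.22). Of the replication-high cells, 12 of 186 had a UMI of the thymocyte list.

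The other B-like cells had few replication UMIs each. At 4 weeks 42 of 1105 (3.80%) had 5 or more replication UMIs, but only 2 had 8 or more, and none of the 42 was rich in mitosis genes (5 or more UMIs of 32 genes). In neutrophil-like cells, a class that as mature cells should not replicate DNA, 4 of 146 (2.74%, 0.75 to 6.87) at 2 weeks had 5 or more and 0 had 8 or more. Those 4 cells had a mean of 6.75 thinned UMIs of the neutrophil list, and 2 of them had none, against a mean of 155.0 in the other 142. All 4 had macrophage-list UMIs (mean 3.25), but so had 114 of the other 142 (mean 2.35). Because 2 of the 4 had no neutrophil-list UMI, the share gives no clean background level. The median depth of the 4 cells was 4031 UMIs, against 3530 in the others. At 4 weeks it was 0 of 22, which allows a share of up to 13.6%.

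**Figure D2:**
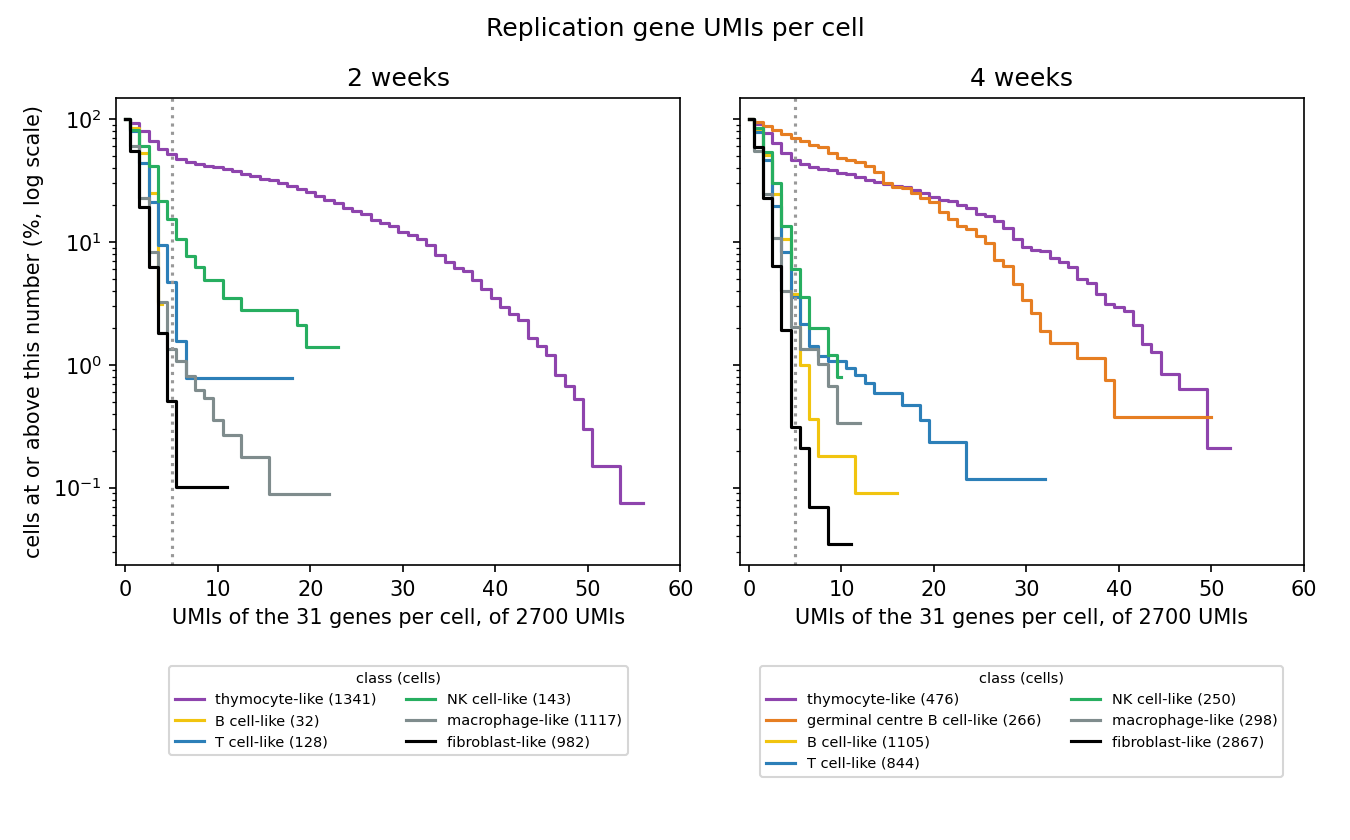
Share of cells (percent, log axis) with at least the number of replication gene UMIs on the x axis, out of 2700 UMIs per cell, by class, at 2 weeks (left) and 4 weeks (right); the dotted line is the threshold of 5. Thymocyte-like and germinal centre B-like cells reach 50 UMIs or more, whereas fibroblast-like cells end at 11.

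The NK-like class (cluster 11) is named from genes of natural killer cells, lymphocytes that kill infected or altered cells, such as Ncr1 and Klre1. Genes of the T cell list were also high in it, so that the name does not set it apart from T cells that kill. At 2 weeks 22 of 143 (15.4%, 9.90 to 22.4) were replication-high and 9 had 8 or more UMIs. At 4 weeks it was 15 of 250 (6.00%, 3.40 to 9.70), with 5 at 8 or more. Of the replication-high cells 5 at 2 weeks and 0 at 4 weeks were also rich in mitosis genes. Thymocyte markers were seen in 17 of the 22 cells at 2 weeks, but also in 76 of the 121 other NK-like cells. T-list UMIs were in all 22 cells at 2 weeks (mean 9.59) and all 15 at 4 weeks (mean 7.87). In the other NK-like cells the means were 8.82 and 6.82. In T-like cells that were not replication-high they were 12.1 and 8.65. The part of either list in the result was not tested.

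The remaining immune classes held few such cells. T-like cells gave 6 of 128 (4.69%) at 2 weeks and 30 of 844 (3.55%) at 4 weeks, and at 8 or more UMIs 1 and 10 cells. Innate lymphoid-like cells gave 6 of 84 and 7 of 110, with 2 at the stricter threshold at each time. That class (cluster 18) was named from leading genes such as Il17a and Areg, but more of the T cell list than of its own list was high in it. All 6 and all 7 replication-high cells had T-list UMIs (means of 17 and 10.6), as did 77 of 78 and 103 of 103 of its other cells. Dendritic-like cells, which present antigen, gave 4 of 85 (4.71%) and 7 of 121 (5.79%). All 4 at 2 weeks and 6 of the 7 at 4 weeks lay in cluster 20. In the other dendritic-like cluster it was 0 of 24 and 1 of 58.

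Macrophage-like cells gave 15 of 1117 (1.34%, 0.75 to 2.21) at 2 weeks and 6 of 298 (2.01%, 0.74 to 4.33) at 4 weeks. Of these, 7 and 3 cells had 8 or more replication UMIs, with up to 22 UMIs from 17 different genes in 1 cell, and none of the 10 had a thymocyte marker UMI. Among the 15 and 6 cells, 2 and 0 were also rich in mitosis genes. B-list UMIs were in 1 of 15 and 4 of 6, against 76 of 1102 and 43 of 292 other macrophage-like cells. Fibroblast-list means were 1.47 and 5.5, against 1.57 and 1.98. At 4 weeks 1 of the 3 cells had 18 fibroblast-list and 10 macrophage-list UMIs, and another had 2 macrophage-list UMIs.

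Cells of the vessel wall held few. Fibroblast-like cells gave 5 of 982 (0.51%, 0.17 to 1.18) at 2 weeks and 9 of 2867 (0.31%, 0.14 to 0.60) at 4 weeks. Only 1 and 2 of these had 8 or more UMIs, all 3 in cluster 10 and none with a thymocyte marker. Smooth muscle-like cells, the contractile cells of the media, gave 0 of 220 and 0 of 74, which allows up to 1.36% and 4.05%. Endothelial-like cells gave 0 of 40 and 0 of 27, which allows up to 7.50% and 11.1%. Replication-high cells in these 2 classes were thus not detectable at this number of cells. Lymphatic endothelial-like cells gave 1 of 24 (4.17%, 0.11 to 21.1) and 1 of 26 (3.85%, 0.10 to 19.6), with 0 at 8 or more UMIs. The unnamed clusters 17 and 23, which carry fibroblast markers, gave 1 of 111 and 1 of 42 at 2 weeks and 0 of 92 and 0 of 28 at 4 weeks. Without thinning, 68.2% of fibroblast-like cells at 2 weeks (median 22448.5 UMIs) and 39.7% at 4 weeks (median 12800) would have passed 5 UMIs, against 4.39% of neutrophil-like cells at 2 weeks.

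Most replication-high cells of both lymphoid classes also held RNA of mitosis genes such as Top2a, Cdk1 and Ccnb1. This was so for 536 of 697 (76.9%) thymocyte-like cells at 2 weeks, 163 of 220 (74.1%) at 4 weeks and 132 of 186 (71.0%) germinal centre B-like cells. In the whole libraries it was 71.6% and 57.9%. Another 51 replication genes that are not among the 31, such as the Orc genes, gave 8 or more UMIs in 43.2% and 35.9% of thymocyte-like cells and in 53.0% of germinal centre B-like cells. In fibroblast-like cells it was 0.10% and 0.07%. At a lower threshold of 3 UMIs it was 84.3% and 80.3% of thymocyte-like cells, but also 22.0% and 23.9% of fibroblast-like cells. The lower threshold was also passed by 65.6% and 63.3% of B-like, 64.1% and 53.3% of T-like and 65.0% and 54.0% of NK-like cells. Innate lymphoid-like cells stood at 61.9% and 61.8%.

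The same pattern was seen when UMIs were summed. Thymocyte-like cells gave 25.1% of all UMIs at 2 weeks but 84.2% of the UMIs of the 31 genes. At 4 weeks they gave 7.5% of all UMIs and 36.7% of the replication UMIs, and germinal centre B-like cells 6.7% and 31.1%. The genes differed in how far they were held by these classes. The highest thymocyte-like shares at 2 weeks were those of 2810417H13Rik (Pclaf, a partner of Pcna) at 96.6%, Rrm2 (the S-phase subunit of ribonucleotide reductase) at 96.0% and Cdca7 at 95.7%. The lowest were those of Rfc2, a subunit of the clamp loader, at 52.4% and Slbp, which binds histone mRNA, at 67.1%. At 4 weeks Rfc2 UMIs came 14.9% from thymocyte-like, 30.3% from germinal centre B-like and 25.4% from fibroblast-like cells.

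**Figure D3:**
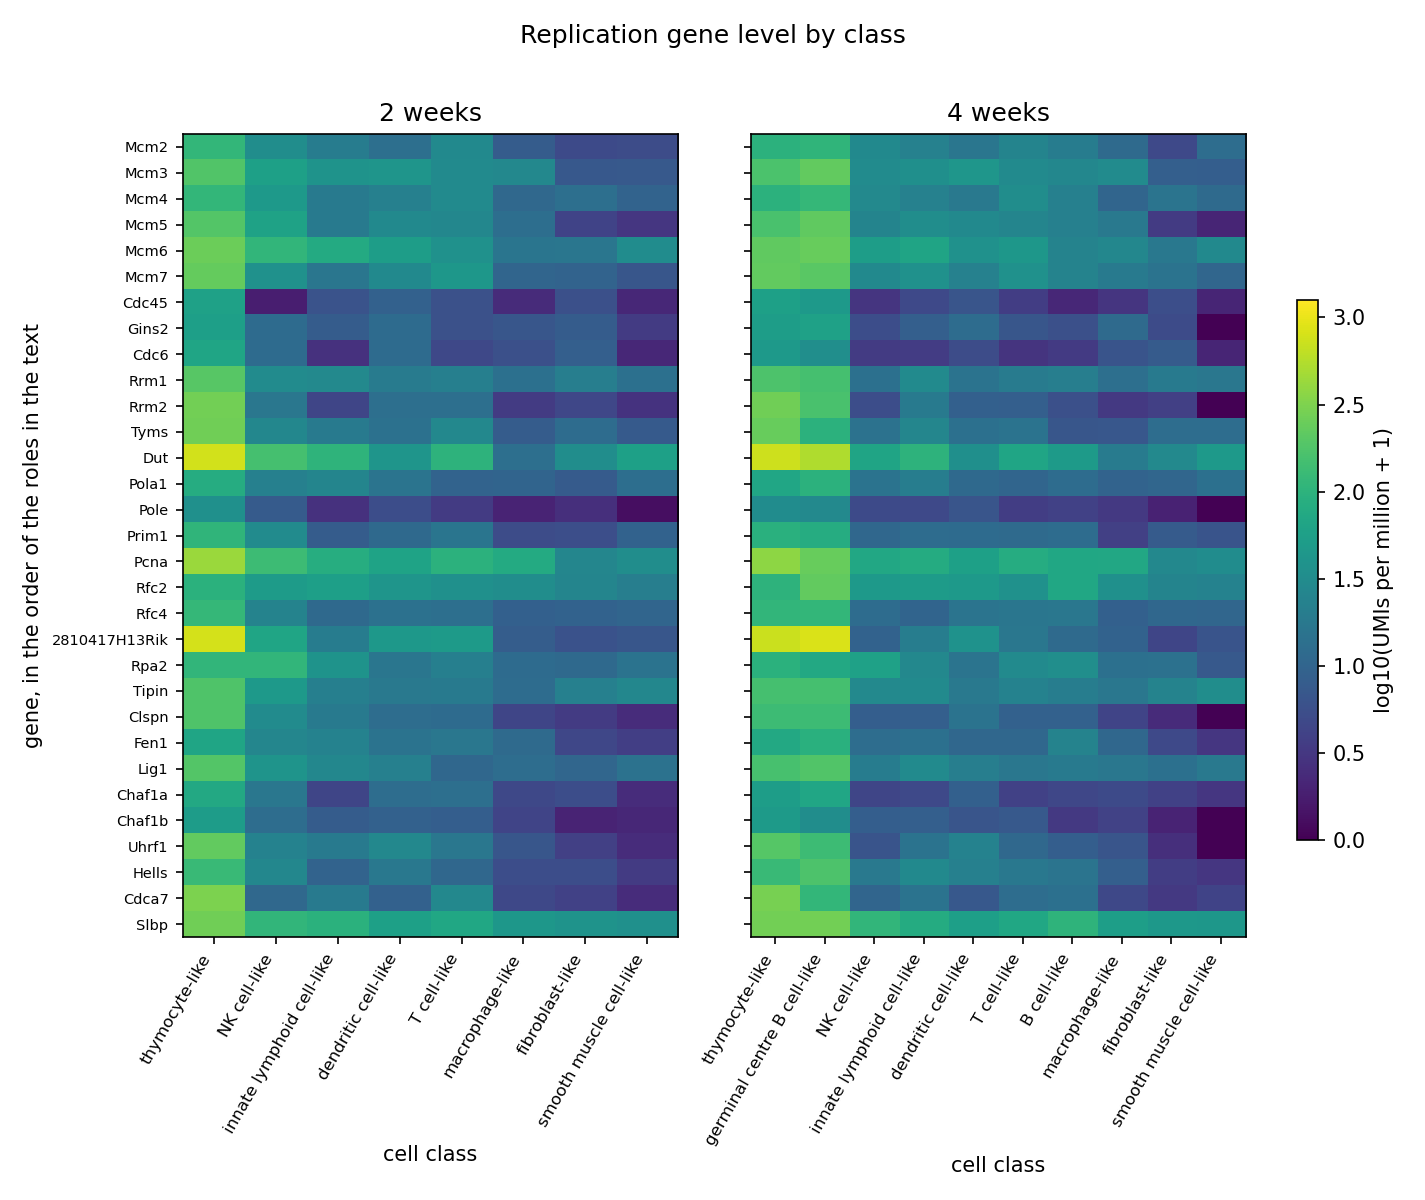
Level of each of the 31 genes (rows) by class (columns; classes with 50 or more cells at that time), as log10 of CPM plus 1, at 2 weeks (left) and 4 weeks (right). The thymocyte-like and germinal centre B-like columns are the brightest for nearly every gene, while Slbp, Pcna and Rfc2 have signal in all classes.

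The helicase genes were higher in both lymphoid classes than in fibroblast-like cells. Mcm3 stood at 180.7 CPM in thymocyte-like cells at 2 weeks, 166.6 at 4 weeks and 225.4 in germinal centre B-like cells at 4 weeks, against 6.1 and 7.6 in fibroblast-like cells. Mcm5 stood at 187.3, 162.8 and 219.3 in the same order, against 3.2 and 2.5. Mcm6 was less sharply divided, at 251.0, 222.3 and 239.8 against 15.3 and 16.4. Cdc45 was at 58.5 and 56.3 in thymocyte-like cells and at 4.7 and 4.5 in fibroblast-like cells.

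Genes of nucleotide supply and of the clamp followed the same division. Rrm2 stood at 276.0 and 266.1 CPM in thymocyte-like cells and at 3.5 and 2.8 in fibroblast-like cells. Dut, which keeps uracil out of DNA, stood at 766.2 and 727.4, against 32.5 and 28.0. Pcna stood at 429.7 and 370.0 in thymocyte-like cells but also at 76.9 and 70.4 in macrophage-like and 25.2 and 27.3 in fibroblast-like cells. The level of 2810417H13Rik differed most between these classes among the 31 genes at both times, at 803.9 and 715.2 against 5.1 and 3.4.

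To compare the genes between cells with and without RNA of other cell cycle genes, cells were grouped by lists that hold none of the 31. The groups were cells with 5 or more UMIs of mitosis genes, cells with 3 or more UMIs of the other replication genes only, and cells with neither. The threshold of 3 was also passed by most B-like, T-like and NK-like cells, so passing it does not by itself mark a replicating cell. How cells with mitosis genes spread over S, G2 and M phase was not tested, so the groups do not show in which phase a gene was highest. In thymocyte-like cells at 2 weeks the 3 groups had 586, 554 and 201 cells. The 31 genes summed to 822.6 CPM in cells with neither, 4096 in those with other replication genes only and 7497 in those with mitosis genes. At 4 weeks the sums were 981.8, 3785 and 7774, and in germinal centre B-like cells 943.9, 2964 and 6283, the same order each time.

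With a doubling counted as a called change (a log2 ratio of 1 or more in size, in genes with 20 or more UMIs), 30 of the 31 genes were higher in thymocyte-like cells at 2 weeks with other replication genes only than in those with neither. The share of all 9553 tested genes called higher was 8.29%. The median log2 ratio was 2.59 over the replication genes and -0.12 over all genes. The exception was Cdca7, at 162.8 CPM in cells with neither and 287.8 in the others (0.82, 0.58 to 1.07). At 4 weeks 29 of 31 genes were called higher (8.46% of all genes), with a median of 2.43. At 2 weeks 2810417H13Rik went from 9.46 to 267.5 (4.82, 3.89 to 5.95) and Hells from 5.25 to 117.4 (4.48, 3.25 to 6.11).

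From those cells to the ones with mitosis genes the genes parted. The median log2 ratio was 0.71 and 10 of 31 were called higher, with 4.86% of all tested genes called higher and a median over all genes of -0.21. Of the nucleotide genes, Tyms, which makes thymidylate, stood at 98.0 against 354.4 CPM (1.85, 1.71 to 2.00) and Rrm2 at 103.9 against 364.3 (1.81, 1.67 to 1.96). Rrm1 stood at 95.4 against 249.8 (1.39, 1.24 to 1.54). Dut, at 542.0 against 918.6 (0.76, 0.70 to 0.83), was near the median. 2810417H13Rik stood at 267.5 against 1075 (2.01, 1.92 to 2.10). The helicase genes Mcm2 to Mcm7 lay between 0.02 (Mcm2, -0.13 to 0.17) and 0.49 (Mcm5, 0.37 to 0.62), and Chaf1b, a histone chaperone subunit, at -0.13 (-0.34 to 0.10). At 4 weeks 12 of 31 genes were called higher (5.76% of all genes) and 0 lower (13.1%), with a median of 0.84.

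A threshold of 8 instead of 3 UMIs of the other replication genes, added after the data were seen, moved these values. It kept 111 thymocyte-like cells in the middle group at 2 weeks. Against cells with neither, 31 of 31 genes were called higher (9.53% of all genes) with a median log2 ratio of 2.77. Against cells with mitosis genes the median was -0.15 and 0 were called in either direction (5.89% of all genes higher, 2.93% lower). The Mcm genes then lay at -0.35 to -0.72, Chaf1b at -0.89 and Hells at -0.69, while 2810417H13Rik at 0.95, Tyms at 0.87 and Rrm2 at 0.79 stayed above 0. Of the other nucleotide genes, Rrm1 lay at 0.48 and Dut at -0.11. At 4 weeks, with 35 cells in the middle group, 31 of 31 genes were called higher than in cells with neither (9.46% of all genes) and 0 lower (24.6%), with a median of 2.83. Cells with mitosis genes against those had 2 called higher (8.2% of all genes) and 0 lower (4.22%), with a median of -0.16. Between the times, the middle group had 0 of 31 called higher (2.08% of all genes) or lower (5.46%) at 4 weeks. The level of the median thus depends on the threshold, and Mcm2 to Mcm7 lay below Tyms and Rrm2 with both.

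**Figure D4:**
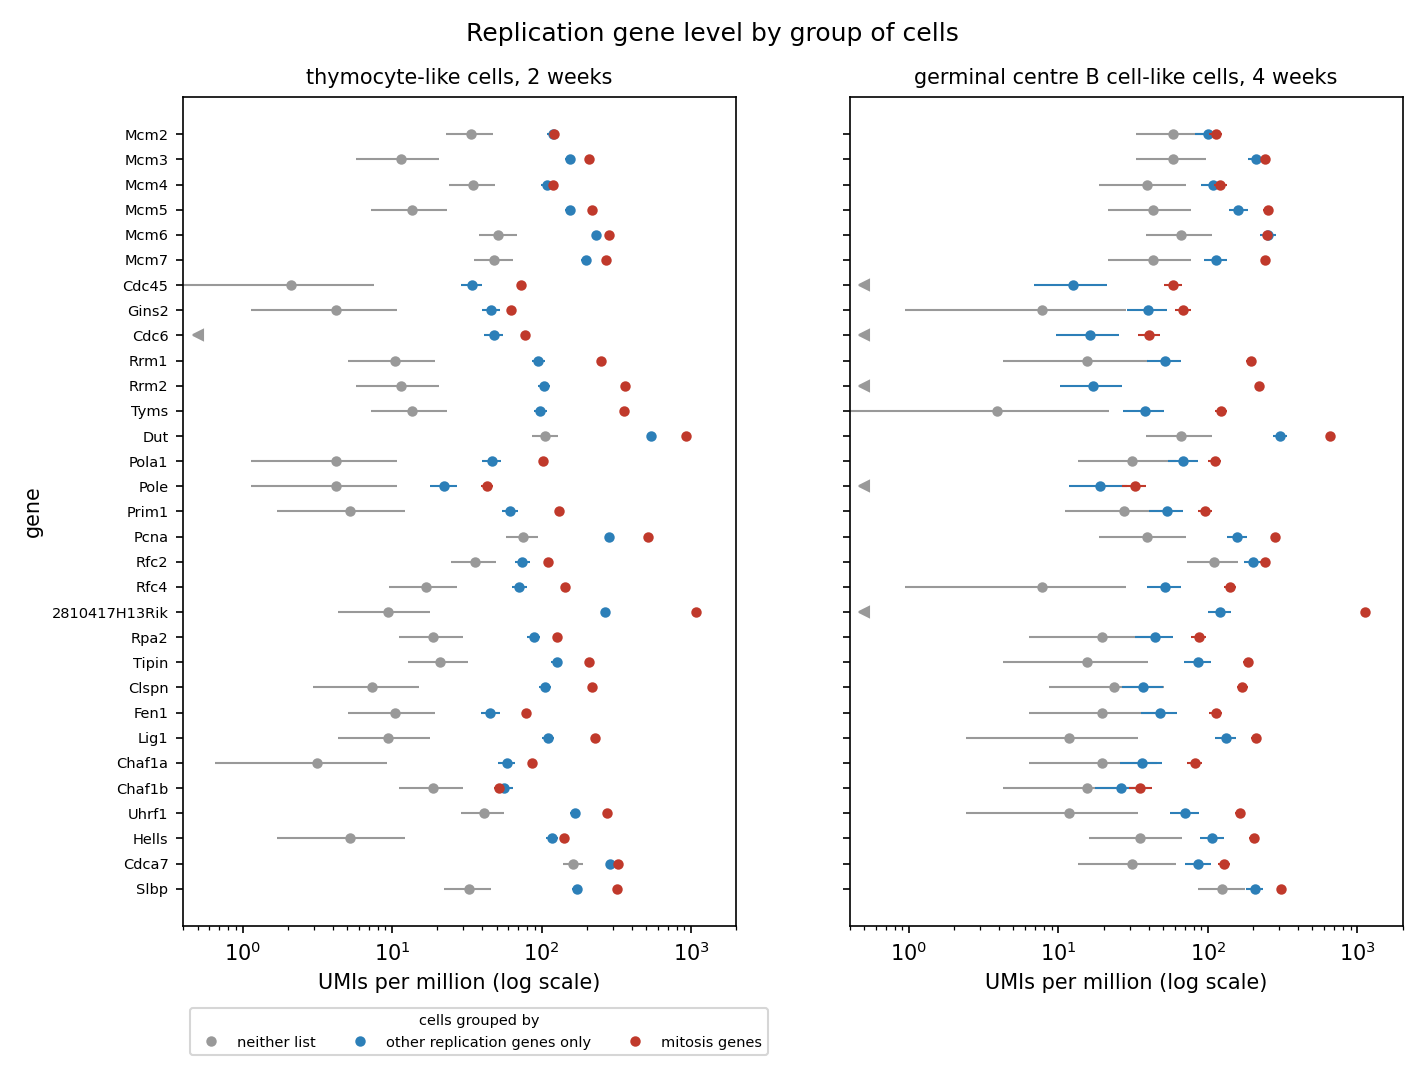
Level of each gene (CPM, log axis, with 95% Poisson intervals) in thymocyte-like cells at 2 weeks and germinal centre B-like cells at 4 weeks, grouped by neither list (grey), other replication genes only (blue) and mitosis genes (red); arrows mark 0 UMIs. 2810417H13Rik reaches 1075 and 1125 CPM in the red groups, and Cdca7 in thymocyte-like cells starts at 162.8 in the grey group.

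Germinal centre B-like cells gave wider intervals because the group with neither list had 23 cells. Of 28 genes with enough UMIs, 20 were called higher in cells with other replication genes only (9.48% of all genes), with a median log2 ratio of 1.53. In cells with mitosis genes against those, 14 of 31 were called higher (7.27% of all genes), with a median of 0.93. Rrm2 stood at 17.1 against 220.6 CPM (3.69, 3.04 to 4.43) and 2810417H13Rik at 119.5 against 1125 (3.23, 2.99 to 3.50). None was called lower (5.6% of all genes). With the threshold of 8, 26 of 28 were called higher in the middle group than in cells with neither (3.69% of all genes) and 0 lower (5.19%). Cells with mitosis genes against that group had 6 of 31 higher (8.32% of all genes) and 0 lower (4.93%). At the threshold of 3 the helicase genes parted in the same comparison. Mcm6, the lowest of the 31 genes, was at 251.6 against 248.0 (-0.02, -0.22 to 0.18). Mcm2, Mcm3 and Mcm4 had log2 ratios of 0.18, 0.20 and 0.17, Mcm5 of 0.65 and Gins2 of 0.79. Mcm7 (1.10, 0.83 to 1.39) and Cdc45 (2.21, 1.43 to 3.11) were called higher.

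The 2 lymphoid classes of the 4-week library were also compared within cells with mitosis genes (142 germinal centre B-like and 174 thymocyte-like cells). How the 2 classes spread over S, G2 and M phase within this group was not tested. Of 31 genes, 1 was called higher in germinal centre B-like cells (11.8% of all genes) and 2 lower (15.7% of all genes), with a median log2 ratio of -0.21 against -0.14 over all genes. The higher gene was Rfc2, at 240.1 against 117.9 CPM (1.03, 0.85 to 1.21). The lower genes were Tyms, at 122.5 against 365.5 (-1.58, -1.74 to -1.42), and Cdca7, at 127.3 against 314.7 (-1.31, -1.47 to -1.14). Rrm2 (-0.92, -1.05 to -0.79) and Pcna (-0.82, -0.94 to -0.71) were lower by less than a doubling. 2810417H13Rik was alike, at 1125 against 1133 (-0.01, -0.07 to 0.06), as was Mcm2 at 112.8 against 117.3 (-0.06, -0.26 to 0.15).

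Between the times the 31 genes differed by less than a doubling within thymocyte-like cells. Over the whole class 0 of 31 genes were called in either direction (2.33% of all genes higher and 2.54% lower at 4 weeks). The median log2 ratio of 4 weeks over 2 weeks was -0.18, against 0.02 over all genes, and 27 of 31 lay below 0. The lowest were Chaf1a, at 73.5 and 52.1 CPM (-0.50, -0.69 to -0.31), and Cdc6, at 64.6 and 46.2 (-0.48, -0.69 to -0.29). Within the cells with mitosis genes the median was 0.03 and 0 were called (0.967% higher, 3.14% lower), so the median below 0 over the whole class was not seen inside that group. Beside the members, the 32 mitosis genes had a median of -0.28, and 0 of 51 other replication genes were called. With no doublets removed the thymocyte-like median was -0.65, and with separate clustering of the libraries 0.10; the cells carrying the name differed in both.

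NK-like cells had the largest difference. There 14 of 28 genes were called lower at 4 weeks (6.71% of all genes) and 0 were called higher (3.04% of all genes), with a median of -0.98 against -0.16 over all genes. 2810417H13Rik stood at 65.9 CPM at 2 weeks (78 UMIs) and 8.40 at 4 weeks (17 UMIs), a log2 ratio of -2.97 (-3.82 to -2.20). Dut stood at 150.4 and 64.3 (-1.23, -1.56 to -0.89) and Mcm6 at 109.8 and 52.4 (-1.07, -1.45 to -0.69). Slbp, at 109.8 and 108.7 (-0.01, -0.33 to 0.31), and Rfc2, at 49.0 and 46.9 (-0.06, -0.55 to 0.44), were close to even. Of the mitosis genes 20 of 20 were called lower, with a median of -3.50. The other replication genes were lower in 7 and higher in 2 of 37, among them Rfc3 at 38.9 and 11.9 (-1.71, -2.49 to -0.97), and Cdkn1a, the cell cycle inhibitor p21, stood at 57.4 and 8.40 (-2.77, -3.63 to -1.99).

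**Figure D5:**
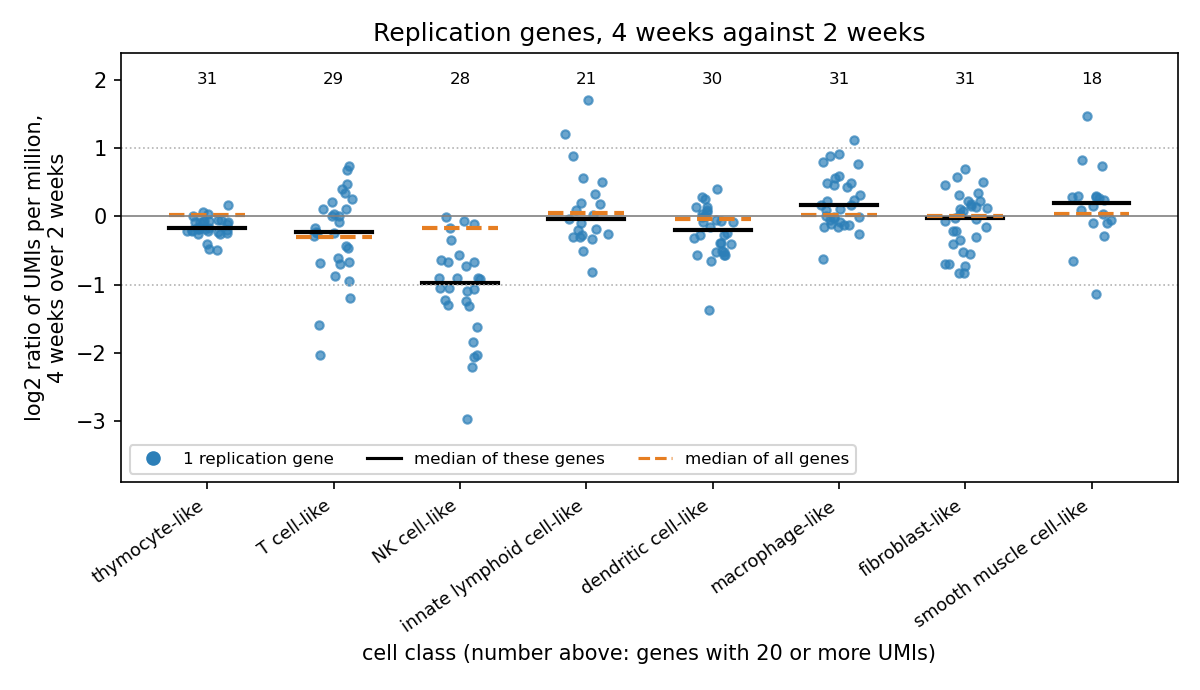
Ratio (log2) of the 4-week to the 2-week CPM for each replication gene with 20 or more UMIs (points), by class, with the median of these genes (black) and of all genes (orange, dashed); dotted lines mark the doubling. The NK-like median is -0.98, and the thymocyte-like points lie between -0.50 and 0.16.

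In macrophage-like cells the 31 genes had a median log2 ratio of 0.17 against 0.02 over all genes, and their summed level was 378.0 CPM at 2 weeks and 437.4 at 4 weeks. Only Pole, the catalytic subunit of polymerase epsilon, was called higher (3.79% of all genes), on 17 and 8 UMIs, and its interval spans 0 (1.12, -0.30 to 2.41). None was called lower (4.12% of all genes). Mcm7 stood at 9.26 and 17.5 (0.91, 0.46 to 1.35) and Mcm6 at 14.9 and 25.9 (0.79, 0.43 to 1.15). The median was -0.26 with no doublets removed, -0.01 with a mitochondrial limit of 5% and 0.57 with separate clustering of the libraries, so its direction rests on the settings. Different clusters also weighed in at the 2 times, with cluster 5 at 507 of 1117 thinned cells at 2 weeks and 188 of 298 at 4 weeks. Outside the 31, Ccnd1, the cyclin of early G1, was at 40.7 and 92.0 (1.18, 0.98 to 1.37). Wdhd1 (1.31, 0.61 to 1.99) and Dna2 (0.88, 0.50 to 1.24) were also higher, and Tk1 was lower (-1.08, -2.26 to -0.09). The G1/S regulators, the list that holds Ccnd1, summed to 1235 and 1064 CPM (-0.21, -0.27 to -0.16).

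Fibroblast-like cells gave 0 of 31 called in either direction (2.30% of all genes higher, 4.94% lower), with a median of -0.02 and sums of 313.2 and 326.5 CPM. Different clusters held the class at the 2 times: cluster 10 had 481 of 982 thinned cells at 2 weeks and 91 of 2867 at 4 weeks, and cluster 3 had 126 and 885. Pcna was at 25.2 and 27.3 (0.12, -0.03 to 0.27) and Mcm7 at 8.61 and 14.0 (0.70, 0.46 to 0.94). Clspn, which links stalled forks to the checkpoint, was at 2.50 and 1.41 (-0.83, -1.39 to -0.27), and Uhrf1, which carries DNA methylation through replication, at 2.89 and 1.62 (-0.83, -1.35 to -0.32). Among the other cell cycle genes Timeless was at 5.77 and 1.98 (-1.54, -1.96 to -1.13) and Cdk6 at 16.8 and 6.79 (-1.31, -1.54 to -1.08).

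In the classes left, few genes were called. T-like cells had 3 of 29 lower at 4 weeks (14.1% of all genes), namely 2810417H13Rik, Chaf1a and Cdca7, and 0 higher (5.85%), with a median of -0.23 against -0.31 over all genes. Different clusters held most of this class at the 2 times, cluster 19 at 2 weeks (87 of 128 cells) and cluster 9 at 4 weeks (581 of 844). Dendritic-like cells had 1 of 30 lower, Cdc6 (6.71% of all genes), and 0 higher (4.51%), with a median of -0.20. Innate lymphoid-like cells had 2 of 21 higher, Mcm7 and Hells (5.84% of all genes), and 0 lower (4.76%). Smooth muscle-like cells had Mcm2 higher (2.74% of all genes) and Rpa2 lower (3.50%) of 18 genes, on 14 and 11 UMIs for Mcm2 and 47 and 6 for Rpa2. In T-like and dendritic-like cells these shares were below those of all genes. In innate lymphoid-like and smooth muscle-like cells they were above where genes were called, but on 1 or 2 genes. Such counts do not set these genes apart in any of the 4 classes.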

How the data were processed

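The deposited files hold UMI counts per gene and barcode for 2 libraries, and the authors produced these counts in Cell Ranger, version 4.0.0 per the file headers. The submitters' processing notes list the mm10 build. The counts are not normalised. The members and gene lists were chosen with earlier results of these data known, and the cluster naming rule after values were seen.

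Barcodes needed 300 genes, 500 UMIs and no more than 10% mitochondrial UMIs, and the top Scrublet scores of a library were dropped at 0.8% per 1000 barcodes (275 and 587 barcodes). Of 5864 and 8565 barcodes, 5152 and 7422 remained, with 71383718 and 72976217 UMIs. Counts per 10000 were logged, and 2000 variable genes, without cell cycle genes, 30 principal components and 15 neighbours were clustered by Leiden at resolution 1, both libraries together and seed 1, giving 29 clusters. A cluster took the class with at least 3 markers and 50% of its list detected in 10% of its cells or more and at 2 or more times the mean over the remaining clusters; classes within 20 percentage points were decided by a lead of 2 markers among the top 10 genes, thymocyte taking precedence over T cell and germinal centre B cell over B cell, and no other class could have more markers there. Clusters 14, 17 and 23 stayed unnamed.

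Shares have exact Clopper-Pearson intervals, levels Poisson intervals and log2 ratios exact conditional binomial intervals (95%), all covering counting error only; a count of 0 allows up to 3 counts, over the summed group. With 1 library per time no test was possible. Named genes besides the 31 are, per class, up to 4 of the other replication genes and G1/S regulators with the largest ratio and at least 50 UMIs. The ratio, share and thinning code was tested on simulated data. Alternatives covered doublets, the mitochondrial limit, clustering, thinning, thresholds and filters. Software was scanpy 1.11.5, leidenalg 0.10.2 and igraph 0.11.9 for clustering, scipy 1.17.1 for intervals, matplotlib 3.10.9 for plots, and scikit-learn 1.9.0, pandas 2.3.3 and numpy 2.4.6 under Python 3.11.15.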

Additional observations from a re-analysis of the deposited data

Results flagged for a closer look

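The summed level of the 31 genes at 4 weeks against 2 weeks went in opposite directions in different classes, which is why these values are given here. The log2 ratio was above 0 in macrophage-like cells (0.21, 0.13 to 0.29) and fibroblast-like cells (0.060, 0.018 to 0.10). It was below 0 in thymocyte-like cells (-0.14, -0.16 to -0.13), dendritic-like cells (-0.16, -0.29 to -0.03), T-like cells (-0.24, -0.36 to -0.12) and NK-like cells (-0.88, -0.99 to -0.78). These directions are not firm in every class. In fibroblast-like cells the median over the genes was -0.017, with 16 of 31 below 0. In macrophage-like cells it was 0.17 but below 0 under 4 of the alternatives (-0.26 to -0.014). In T-like cells the median over all genes was -0.31, lower than the -0.23 of the 31 genes. In thymocyte-like cells the median of -0.18 became 0.10 with separate clustering of the libraries. Each time is 1 library, so the difference between classes was not tested.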

How the results depend on the processing

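No paired analysis was possible because each time is 1 library. Values below are replication-high shares of all cells at 2 and 4 weeks, thymocyte-like shares at 2 and 4 weeks, the germinal centre B-like share at 4 weeks, and the makeup (percent of replication-high cells that are of a class), as far as each moved beyond its counting interval.

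A threshold of 3 replication UMIs gave 26.8% and 19.7% of all cells, 66.9% and 63.7% of thymocyte-like, 82.0% of germinal centre B-like cells, and a makeup of 72.5% and 22.8% thymocyte-like and 16.4% germinal centre B-like. A threshold of 8 gave 13.03% and 5.48%, 43.0% and 39.1%, 59.0%, and 96.0%, 50.4% and 42.5%. Thinning to 1500 UMIs with a threshold of 3 gave 10.1% of all cells at 4 weeks, 48.9% and 39.9%, and a makeup of 86.3% (thymocyte-like, 2 weeks) and 24.5% (germinal centre B-like). Without Pcna, Dut, Slbp, Rpa2 and Tipin it was 14.1% and 6.08%, 46.0% and 41.0%, with a makeup of 94.9%, 47.7% and 42.1%. Without thinning, scaling each cell to 2700 UMIs gave 14.8% at 2 weeks, 43.0% and 33.0%, and 50.4% (thymocyte-like makeup, 4 weeks). Counting shallow cells as not replication-high gave 14.8% and 7.05%, 42.6% and 27.1%.

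Under 4 settings that changed the clusters, thymocyte-like shares and makeup were lower, though with separate clustering only at 2 weeks. With cell cycle genes in the clustering, 696 of 697 and 220 of 220 of the replication-high thymocyte-like cells kept the name. With no doublets removed they were 33.2% and 24.2%, and 35.1% and 12.9%, with 54.0% of germinal centre B-like cells and 8.52% of all cells at 4 weeks. With a mitochondrial limit of 5% they were 44.5% and 37.9%, and 63.2% and 28.2%. At Leiden resolution 2 they were 43.4% and 37.3%, and 63.9% and 29.1%. With separate clustering of the libraries they were 42.0% and 60.8% at 2 weeks.

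Median log2 ratios of 4 over 2 weeks moved as follows. With no doublets removed they were -0.65 (thymocyte-like), -1.35 (NK-like), -0.26 (macrophage-like) and -0.094 (fibroblast-like). For thymocyte-like cells they were -0.24 at the 5% limit, -0.25 at resolution 2, 0.10 with separate clustering and -0.19 when scaled by the median ratio of all genes, which gave -0.82 for NK-like cells. For macrophage-like cells they were -0.014 at the 5% limit, -0.056 with cell cycle genes in the clustering, -0.049 at resolution 2 and 0.57 with separate clustering. No NK-like cluster was named at resolution 2. A threshold of 8 other replication UMIs, added later, gave medians over cells with neither list of 2.77 and 2.83 (thymocyte-like) and 1.86 (germinal centre B-like), and for cells with mitosis genes over the middle group of -0.15, -0.16 and 0.22. The cause of these moves was not tested. A second thinning seed moved 0 of 23 values. Depth limits the shares of small classes.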
